A study of Mus musculus with 11 samples.

Results

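The genes followed here are 10 genes of ventral telencephalon and GABAergic identity, chosen by name from the 48440 genes of the count table of 6 cultures and read in the same way in 2 single-cell matrices: Six3, its antisense neighbour Six3os1, Dlx1, Dlx2, Dlx5, Dlx6os1, Gsx2, Nkx2-1, Gad1 and Gad2. Cultured mouse neural progenitor cells (NPCs) of E14.5 gave 3 bulk RNA-seq libraries labelled wild type (WT) and 3 labelled Syncrip conditional knockout (cKO). By the study's methods, NPCs came from dissected lateral ventricles, while its figure legends name neocortices. The region taken into each culture is not in the labels, and its part in the results was not tested. Dissected dorsal telencephalon at the same embryonic day gave 1 WT and 1 cKO library of single cells. Libraries of RNA bound by Syncrip were not analysed here. The labels name neither the Cre driver nor the floxed alleles of a sample, so what the WT samples carry is not given. The study's methods describe a Syncrip allele with loxP sites around exons 2 to 4, crossed to Emx1-Cre, which acts in the dorsal telencephalon, and also a Nestin-Cre cross. No label says that the cultures came from separate animals, so a p-value here measures the spread between cultures, which may be technical at least in part.

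The deletion could not be read from Syncrip itself. In the cultures labelled WT, Syncrip had 77.9, 79.8 and 79.9 CPM (counts scaled to the library size), and in those labelled cKO 90.3, 88.7 and 81.5 CPM. The cKO-labelled values were the higher ones, with a log2 fold change of 0.13 (SE 0.075, adjusted p = 0.180 by edgeR's quasi-likelihood test with Benjamini-Hochberg adjustment). Counts over the whole gene do not resolve exons 2 to 4, and the 3′ ends read in single cells lie outside the deleted part, so neither deposited table checks the genotype. The study assessed the deletion of these exons on the RNA-seq read tracks themselves, which were not analysed here. It also reports the knockout at the protein level, by Western blot and staining of postnatal neocortex, which was not sampled here. Every direction given here therefore rests on the libraries as they are labelled.

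The embryonic telencephalon is divided into a dorsal part, the pallium, which makes glutamatergic neurons, and a ventral part, the ganglionic eminences (GE), which make GABAergic neurons. The lateral (LGE), medial (MGE) and caudal (CGE) eminences each use their own transcription factors. Gsx2 patterns ventral progenitors, Dlx1, Dlx2 and Dlx5 encode homeodomain proteins of GABAergic precursors, Nkx2-1 specifies the MGE, and Six3 is a homeodomain factor of the anterior forebrain that is also used in striatal precursors. Six3os1 and Dlx6os1 are long non-coding RNAs made from the strand opposite Six3 and Dlx6. Gad1 and Gad2 encode the enzymes that make GABA from glutamate.

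Totals per culture ran from 16962903 to 22708400 counts. Of 14432 genes that passed the filter on low counts, 5701 (39.5%) were called at an adjusted p below 0.05, 2858 (19.8%) lower and 2843 (19.7%) higher in cKO cultures, and the CPM of the genotypes did not overlap for 7275 (50.4%). Because so many genes moved, a call on 1 gene is a common event in these cultures. Of the 10 genes, 7 passed the filter. Against that 19.8% background, 3 of the 7 were lower in cKO cultures (Six3, Six3os1 and Dlx2). These 3 passed the filter through the WT cultures, having few or no counts in cKO, and Six3 and Six3os1 overlap at the same locus. The 10 genes were chosen with earlier results of these data known. The count of 3 and the p-values of these genes are therefore a description and no independent test. None of the 7 was called higher by edgeR, DESeq2 or limma-voom, and 1 (Dlx6os1) was higher at an unadjusted p below 0.05 by edgeR. Gsx2, Dlx6os1, Gad1 and Gad2 did not pass the threshold, Dlx5 was too low to test, and Dlx1 and Nkx2-1 had no count in any culture. In bulk RNA, fewer cells of a type and less RNA per cell cannot be told apart.

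**Figure D1:**
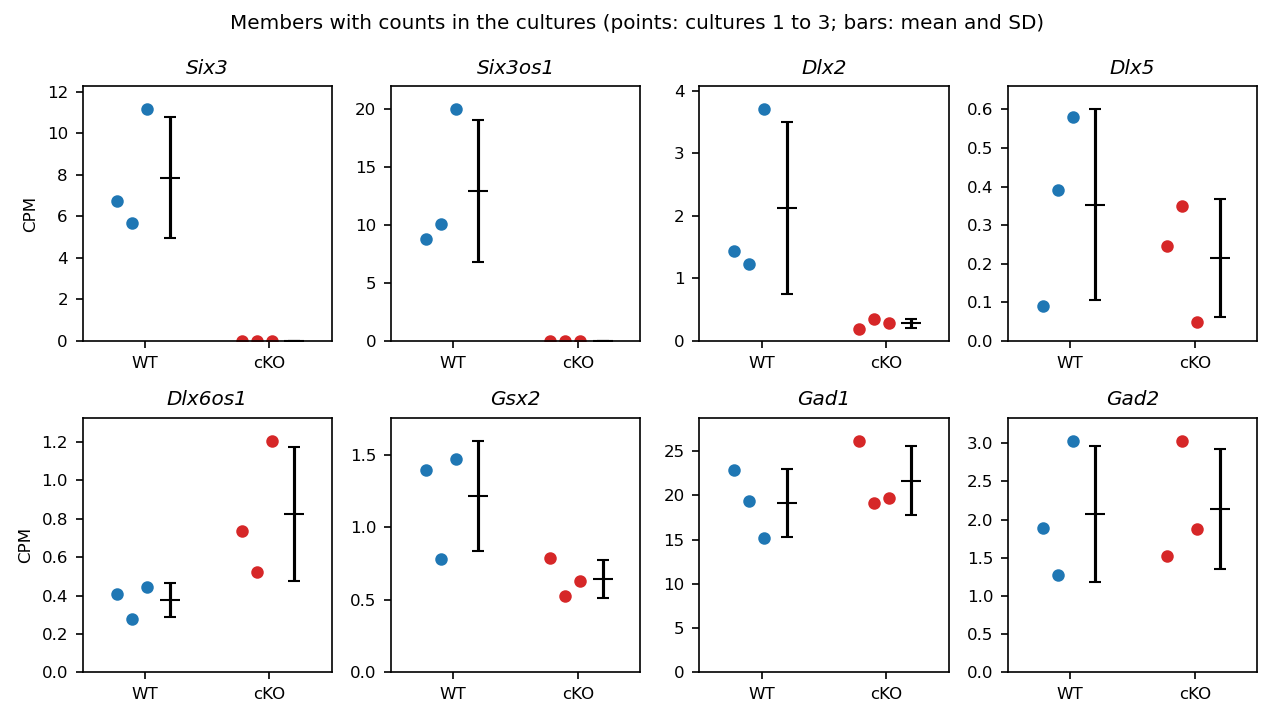
CPM of the 8 genes with counts in each of the 3 WT (blue) and 3 cKO (red) cultures, with the mean and SD beside the points; each panel has its own axis, starting at 0. Six3 and Six3os1 are at 0 in every cKO culture, Dlx2 is low in every cKO culture, and Gad1 and Gad2 overlap between genotypes.

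Six3 and Six3os1 were absent from the cKO counts. Six3 (ENSMUSG00000038805, mm10 chr17:85613608-85629302, plus strand) had 150, 102 and 250 counts in the WT cultures and 0, 0 and 0 in the cKO cultures. Six3os1 (ENSMUSG00000093460, chr17:85600651-85618398, minus strand) had 194, 181 and 447 counts in WT and 0, 0 and 0 in cKO. The genotypes did not overlap for either gene, and WT culture 3 was the highest for both.

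The WT mean of Six3 was 7.86 ± 2.90 CPM (SD, n = 3), and that of Six3os1 was 12.9 ± 6.12 CPM. A total of 3 counts over the 3 cKO cultures corresponds to 0.0514 CPM, so Six3 was at least 153-fold lower and Six3os1 at least 251-fold lower in the cKO cultures. The adjusted p was 5.20e-07 for Six3 and 6.49e-05 for Six3os1 (edgeR). An exact permutation test of 3 against 3 cultures, 2-sided, gave 0.1 for each, the smallest value that this design allows. Among all tested genes, these were the only 2 with no count in any cKO culture and at least 50 in every WT culture, and no gene showed the converse.

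By their spans in the GENCODE annotation, the genes overlap head to head. Of Six3, 5172 of 5446 exon bases, and 66.9% of those of Six3os1, lie outside any other gene. The nearest tested genes on either side did not share the loss. Camkmt, 143 kb to the left, averaged 11.9 ± 1.39 CPM in the WT cultures against 14.9 ± 1.08 CPM (adjusted p = 0.0681, edgeR). Srbd1, 355 kb to the right, had 37.4 ± 1.21 CPM and 42.3 ± 1.26 CPM (adjusted p = 0.127). Six2, the paralog next to Six3, was near 0 throughout, with 0, 2 and 2 counts in WT and 0, 0 and 0 in cKO.

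To show the promoters of the genes that fell together, the 250 bases before the RefSeq start are printed 5′ to 3′ on the strand of the gene (RefSeq sequence, GRCm38.p6, which is mm10). An entry was found for 9 of the 10 genes. RefSeq starts can differ from the GENCODE spans printed with the genes, and the windows of Six3 and Dlx6os1 lie inside those spans. Capitals mark CCAAT on either strand, a pentamer of many promoters, and TAATTA, the palindromic core that homeodomain proteins of the Dlx kind bind. The windows are chr17:85620584-85620833 for Six3, chr17:85618397-85618646 for Six3os1 and chr2:71546755-71547004 for Dlx2. The window of Dlx6os1, chr6:6869534-6869783, is shown as the contrast, since that gene did not fall.
Six3: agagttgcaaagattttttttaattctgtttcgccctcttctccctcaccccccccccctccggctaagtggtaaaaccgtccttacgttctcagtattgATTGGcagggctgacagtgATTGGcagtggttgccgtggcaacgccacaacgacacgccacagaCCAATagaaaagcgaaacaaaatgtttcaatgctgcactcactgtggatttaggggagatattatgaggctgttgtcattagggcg
Six3os1: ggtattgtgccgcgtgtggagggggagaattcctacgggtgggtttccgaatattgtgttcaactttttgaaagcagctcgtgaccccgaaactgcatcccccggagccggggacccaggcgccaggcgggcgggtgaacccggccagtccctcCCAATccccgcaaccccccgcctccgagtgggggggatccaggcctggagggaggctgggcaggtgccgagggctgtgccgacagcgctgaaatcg
Dlx2: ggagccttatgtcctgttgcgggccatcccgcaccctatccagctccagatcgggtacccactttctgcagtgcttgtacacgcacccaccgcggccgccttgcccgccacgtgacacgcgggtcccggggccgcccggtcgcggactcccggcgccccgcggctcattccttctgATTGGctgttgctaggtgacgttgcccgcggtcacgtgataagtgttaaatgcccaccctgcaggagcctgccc
Dlx6os1: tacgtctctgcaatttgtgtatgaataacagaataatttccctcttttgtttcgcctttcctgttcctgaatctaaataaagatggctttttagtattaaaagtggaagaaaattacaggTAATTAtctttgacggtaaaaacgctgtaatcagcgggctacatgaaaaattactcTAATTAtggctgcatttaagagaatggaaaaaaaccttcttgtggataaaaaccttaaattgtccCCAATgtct

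The Six3 window held 3 CCAAT matches, and those of Six3os1, Dlx2 and Dlx6os1 held 1 each. Of 32851 promoter windows of this length in the annotation, 33.8% held at least 1 CCAAT and 2.79% at least 3. TAATTA occurred in 4.84% of all windows, and among the 10 genes only in the Dlx6os1 windows, with 2 matches in the one printed. The windows differed in base composition. G and C made up 48.8% of the Six3 window, 66.0% of the Six3os1 window and 66.4% of the Dlx2 window, against 33.2% for Dlx6os1 and a median of 52.4% over all promoters. A match is a run of letters and not a tested site.

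The Dlx genes did not move together in the cultures. Dlx2 (ENSMUSG00000023391, chr2:71543408-71546754, minus strand), which acts with Dlx1 in the differentiation of GABAergic precursors, had 32, 22 and 83 counts in WT and 4, 6 and 6 in cKO. Every WT culture was above every cKO culture, and WT culture 3 stood highest. The mean fell from 2.12 ± 1.37 CPM to 0.278 ± 0.0773 CPM, a log2 fold change of -2.93 (SE 0.52, adjusted p = 5.49e-04, edgeR, and exact permutation p = 0.1). Without WT culture 3 the log2 fold change was -2.26.

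Dlx6os1 (ENSMUSG00000090063, chr6:6820189-6871592, minus strand), also called Evf2, had 9, 5 and 10 counts in WT and 15, 9 and 25 in cKO. On the CPM scale each cKO culture was above each WT culture, at 0.822 ± 0.349 against 0.377 ± 0.0874 CPM. The log2 fold change of 1.11 (SE 0.45) did not pass the threshold (adjusted p = 0.0665, edgeR, and exact permutation p = 0.1). A second, short entry under the same symbol had no count.

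Dlx5 (ENSMUSG00000029755, chr6:6877805-6882085, minus strand), the neighbour of Dlx6os1, had 2, 7 and 13 counts in WT and 5, 6 and 1 in cKO. The genotypes overlapped, and the exact permutation p was 0.4. Dlx1 (ENSMUSG00000041911, chr2:71528113-71533981, plus strand) could not be read at all. It lies wholly inside the span of Dlx1as on the opposite strand, and in this table all 10755 genes that lie wholly within another gene had 0 counts in every culture, against 51.5% of the 27220 genes that share no base with another. Its 0 therefore says nothing about its level, and the same holds for Dlx6, inside Dlx6os1. Dlx1as had 4, 7 and 9 counts in WT and 0, 4 and 2 in cKO, with overlap on the CPM scale.

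**Figure D2:**
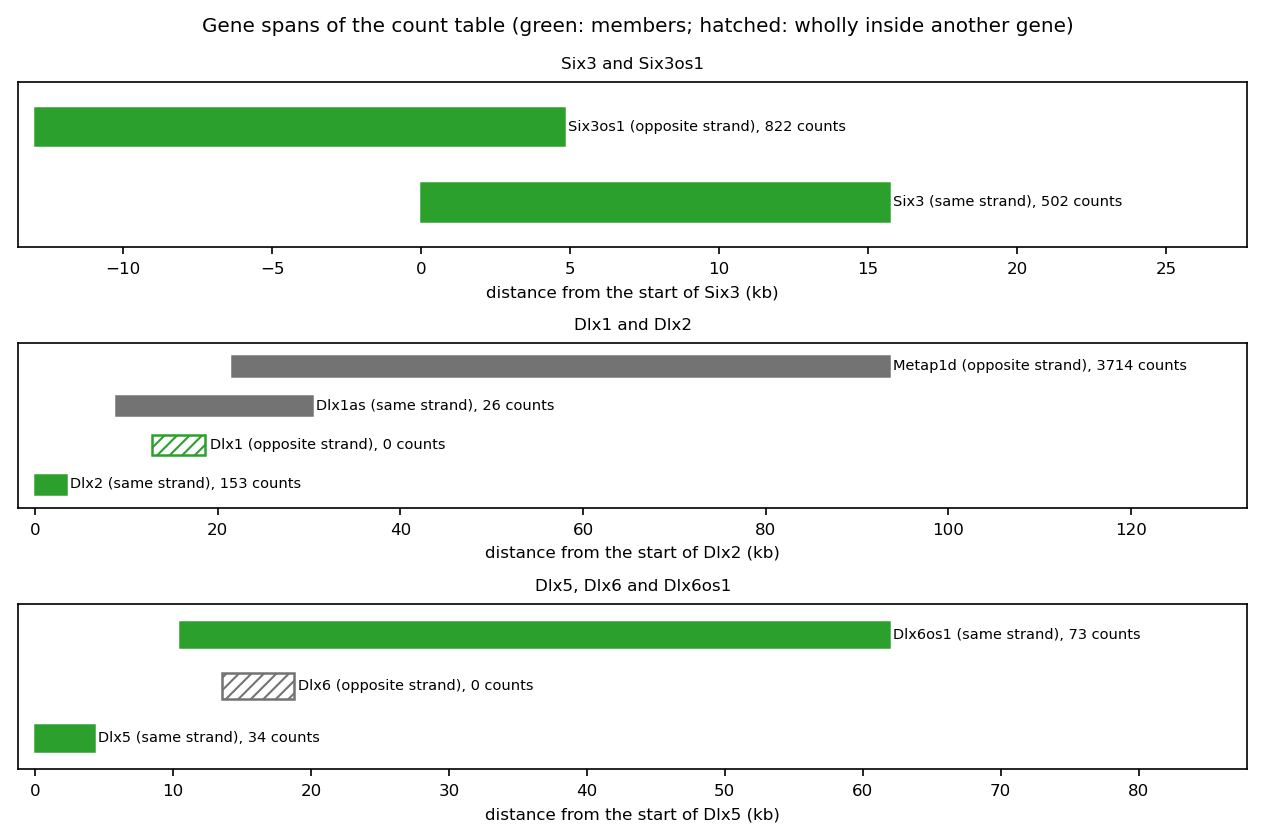
Spans of the genes at the Six3, Dlx1 and Dlx2, and Dlx5 loci, drawn to scale in kb from the start of the named gene, with the counts summed over the 6 cultures. Hatched genes, Dlx1 and Dlx6, lie wholly inside another gene and have 0 counts, whereas Dlx2, Dlx5 and most of Six3 lie clear of their neighbours.

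The nearest tested gene on the Dlx1 side, Metap1d, overlaps the span of Dlx1as. Metap1d was higher in cKO cultures (36.6 ± 0.425 CPM against 25.04 ± 2.65 CPM in WT, log2 fold change 0.55, SE 0.10, adjusted p = 7.16e-04, edgeR), opposite to Dlx2. On the other side, Itga6, 199 kb from Dlx2, was also higher (log2 fold change 0.26, adjusted p = 0.0199), a call that was lost without some single cultures. At the Dlx5 locus, neither Gm5873 (adjusted p = 0.254) nor Sdhaf3 (adjusted p = 0.534) was called.

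Gsx2 and Nkx2-1, the regional patterning factors, gave no call. Gsx2 (ENSMUSG00000035946, chr5:75075601-75077893, plus strand) had 31, 14 and 33 counts in WT and 16, 9 and 13 in cKO. WT cultures 1 and 3 lay above the others, and WT culture 2 fell within the cKO range on the CPM scale. The means were 1.22 ± 0.380 CPM and 0.645 ± 0.131 CPM, a log2 fold change of -0.91 (SE 0.38, adjusted p = 0.0689, edgeR, and exact permutation p = 0.2). Without WT culture 2 the adjusted p was 0.0421 and the log2 fold change -1.15. Its neighbour Pdgfra, a receptor of oligodendrocyte precursors, was higher in cKO (log2 fold change 0.25, adjusted p = 0.0179), also a call that some single cultures decided, and Chic2 on the other side was not called.

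Nkx2-1 (ENSMUSG00000001496, chr12:56531958-56536908, minus strand) had no count in any of the 6 cultures. As 78.9% of its exon bases lie outside other genes, it could have been counted, and 3 counts over all 6 cultures correspond to 0.0248 CPM. Of its neighbours, Mipol1 was higher in cKO (log2 fold change 0.30, adjusted p = 0.0412), a call lost without several of the single cultures, and Gm6265 was not called (adjusted p = 0.230).

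The genes of GABA synthesis were not called. Gad1 (ENSMUSG00000070880, chr2:70553072-70602014, plus strand) had 509, 347 and 340 counts in WT and 534, 328 and 409 in cKO. The genotypes overlapped, at 19.1 ± 3.88 and 21.7 ± 3.92 CPM. The log2 fold change was 0.18 (SE 0.16, adjusted p = 0.379, edgeR, and exact permutation p = 0.5). With the sex of the culture, read from Y-linked genes alone, as a covariate, the log2 fold change of Gad1 was 0.33 and the adjusted p was 0.0345. Xist had 0 counts in all 6 cultures and lies wholly inside Tsix, so it could not check that sex.

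Gad2 (ENSMUSG00000026787, chr2:22622205-22693874, plus strand) had 42, 23 and 68 counts in WT and 31, 52 and 39 in cKO. The ranges lay on top of each other, at 2.07 ± 0.890 and 2.14 ± 0.788 CPM. The log2 fold change was 0.02 (SE 0.34, adjusted p = 0.967, edgeR, and exact permutation p = 1), and its sign was not stable between settings. Gorasp2 and Rpl9-ps7 beside Gad1, and Myo3a and A130006I12Rik beside Gad2, were not called either.

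WT culture 3 was the highest of the 6 for Six3, Six3os1, Dlx2, Dlx5, Gsx2 and Gad2. It was also the highest for Neurod6, a gene of glutamatergic neurons, and for Mbp, a myelin gene of oligodendrocytes. For Gad1, WT culture 3 was the lowest of the 6, at 15.2 CPM. Y-linked genes had 8899, 5903 and 1 counts in the WT cultures and 9232, 0 and 0 in the cKO cultures, so WT culture 3 also differed in sex from the other WT cultures. The part of these other cells, or of sex, in the WT spread was not tested.

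Other genes of the same programs showed a mixture of losses and gains. The lists were 6 sets of named genes, which held 34 tested genes in all, of which 13 were lower and 5 higher in cKO cultures, where 19.8% and 19.7% of all tested genes were. The list of CGE lineage genes was the most one-sided. Of its 8 tested genes, 6 were lower and none higher (0 of 8 by edgeR, also at an unadjusted p below 0.05), with a median log2 fold change of -0.60 against 0.00 over all tested genes. Calb2, a calcium-binding protein of interneurons, fell from 2.08 ± 0.452 to 0.246 ± 0.102 CPM (log2 fold change -3.07, SE 0.41, adjusted p = 6.33e-05, edgeR). Nr2f2, a nuclear receptor of the CGE, fell from 8.17 ± 4.42 to 1.28 ± 0.431 CPM (-2.64, SE 0.49, adjusted p = 0.00275). Htr3a, a serotonin receptor of CGE interneurons, also fell (-1.29, SE 0.16). In the tissue libraries, the CGE-like cells described below held 20 of 1357 molecules of Calb2 and 1755 of 14450 of Nr2f2. They held 129 of 307 of Htr3a and 14838 of 21871 of Adarb2, so not every gene of the list is specific to the CGE lineage. Sp8 passed only narrowly (-0.85, adjusted p = 0.0481) and lost its call in 7 of 14 alternatives. Prox1 and Npas1, named after their values were seen, also fell, Npas1 as narrowly as Sp8 (-0.35, adjusted p = 0.0493), and Adarb2 and Nr2f1 were not called.

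Ventral progenitor genes split evenly. Of 6 tested genes, 2 were lower and 2 higher in cKO cultures. Nkx6-2, a homeobox gene of ventral progenitors, fell from 7.61 ± 1.16 CPM to 3.32 ± 0.587 CPM (log2 fold change -1.19, SE 0.20, adjusted p = 3.52e-04, edgeR). Olig1 and Ptch1, the receptor of Sonic hedgehog, rose (0.44 and 0.46). Gsx1, the paralog of Gsx2, was not called, with 8.58 ± 0.846 and 7.20 ± 1.04 CPM. The median over the list was -0.06.

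Of 6 tested MGE lineage genes, 2 were lower, led by Maf (-1.15), and 2 higher (Nxph1, 0.86, and Sox6, 0.76), with a median of -0.07. In the tissue libraries, Sox6 was at 1018 CPM in the larger MGE-like cluster but also at 298 CPM in CGE-like cells. It is thus not specific to the MGE lineage, whereas Nxph1 was at 2966 and 31.7 CPM in the same clusters. Lhx6, the factor that acts below Nkx2-1 in MGE interneurons, had 1 count in all 6 cultures, in cKO culture 1, and Lhx8 had none. Sst, an interneuron peptide, likewise had 1 count, in cKO culture 3. Of 8 tested LGE and striatal genes, Sp9 fell from 3.496 ± 0.226 to 0.862 ± 0.617 CPM (-1.997, SE 0.37, adjusted p = 7.70e-04, edgeR). Ebf1 was lower (-0.53) and Rarb higher (0.44), and both lost their calls without some single cultures. Isl1, a factor of striatal neurons, had 1 count in all. Of 4 tested genes of GABA handling, Abat, which breaks GABA down, fell (-0.41, SE 0.081), and the transporter gene Slc6a11 was not called. Slc32a1, the vesicular GABA transporter, was too low to test, with 5, 4 and 2 counts in WT and 0, 1 and 1 in cKO. Of 9 paralogs and linked genes of the members, Six4 and Six5 alone were tested and neither was called.

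Markers of other cell types moved too. Of 9 tested dorsal pallium genes, 3 were lower, among them Neurod6 (16.3 ± 5.01 to 0.904 ± 0.329 CPM, log2 fold change -4.14) and Neurod2 (-2.24), and 1 higher (Neurog2, 0.70). Emx1, the gene whose locus drives one of the study's Cre lines, was low in both genotypes, at 0.652 ± 0.366 and 1.25 ± 0.316 CPM. Of 10 tested pan-neuronal genes, 7 were lower and none higher (0 of 10 by edgeR, also at an unadjusted p below 0.05), led by Stmn2 (15.1 ± 1.68 to 0.152 ± 0.0384 CPM, -6.56) and Rbfox3 (-1.40). The list summed to 2502 to 2812 CPM in WT and 2524 to 2631 CPM in cKO. Its largest part was Map2, which was not called (1444 ± 129 and 1647 ± 73.4 CPM), so the sum does not show the other genes. Tubb3 and Nefl lie wholly inside other genes and had no count. The part of the dorsal pallium and pan-neuronal genes in the lower Six3, Six3os1 and Dlx2 was not tested.

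Glial genes were abundant in these cultures. The oligodendrocyte list summed to 2612 to 3050 CPM in WT and to 1251 to 1529 CPM in cKO, with 3 of 6 genes lower, led by Mag (-1.82) and Mbp (-1.50), and 1 higher (Pdgfra). The astrocyte list summed to 4007 to 4430 and 2439 to 2751 CPM, with 4 of 5 tested genes lower, led by Aqp4 (-2.06) and Gja1 (-1.63). The endothelial list was near 0, at 2.12 to 3.30 CPM in WT against 2.04 to 2.75 CPM, with Cldn5 and Cdh5 at 0. The microglial list was at 0.279 to 0.982 and 1.32 to 2.27 CPM, with C1qa, C1qb, C1qc and Tyrobp at 0 and Cx3cr1 called higher (1.38), a call lost without WT culture 2 or cKO culture 2. The part of the glial genes in the members' differences was not tested either.

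**Figure D3:**
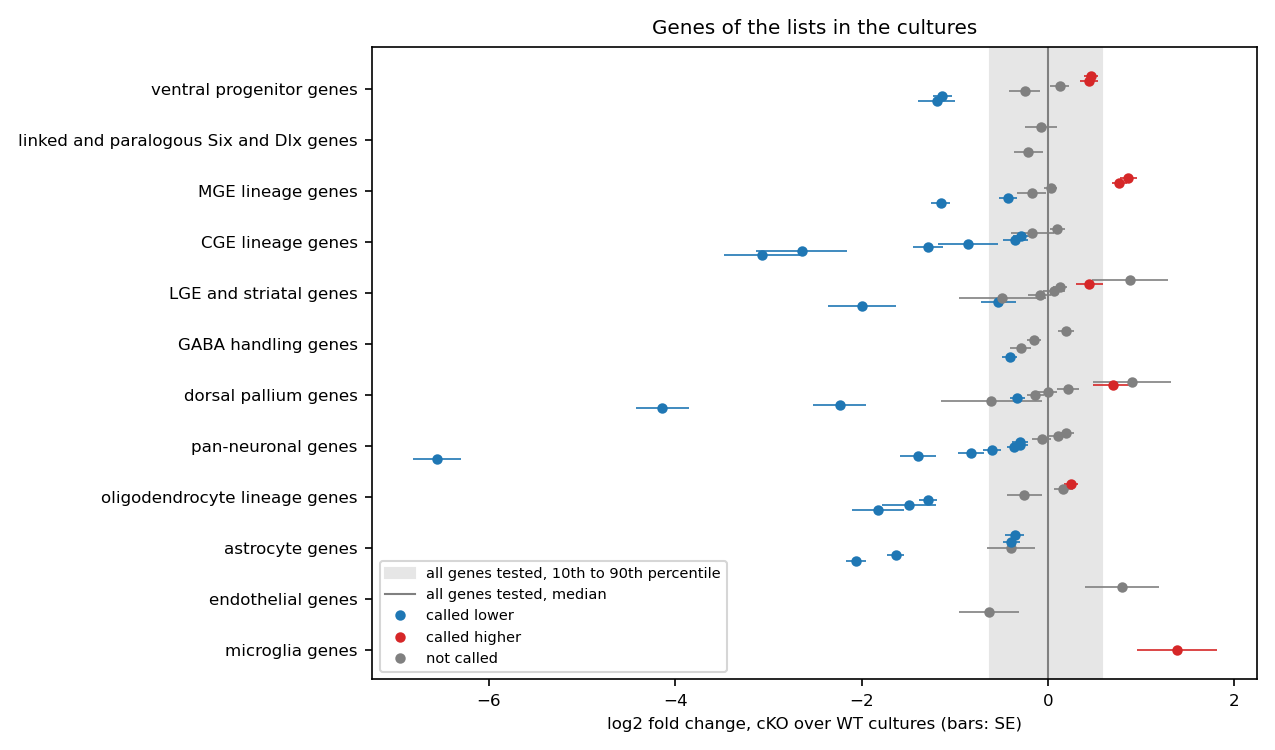
Log2 fold change, cKO over WT cultures, of each tested gene of 12 lists (points, with SE as bars), against the median and the 10th to 90th percentile of all tested genes in gray. CGE lineage genes lie mostly to the left, MGE lineage genes on both sides, and neuronal, oligodendrocyte and astrocyte genes mostly to the left.

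In the tissue the same 10 genes could be placed in cells. The WT embryo gave 8289 barcodes, of which 8214 were kept, with a median of 11705 molecules (UMIs) per cell, and the cKO embryo 9659, of which 9560 were kept, with a median of 11012.5. The libraries share 22 barcodes. Cells were clustered without the 10 genes and named without them, but the markers used for the names belong in part to the same GABAergic program, so the levels by cell type are a description and no test. As there was 1 embryo per genotype, no test was made between embryos, and the intervals (95%, exact) cover counting error only.

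Although the tissue was dissected as dorsal, 1190 WT cells (14.49%, 13.7% to 15.3%) and 1638 cKO cells (17.1%, 16.4% to 17.9%) fell in clusters named GE-like from markers such as Slc32a1, Sp9 and Lhx6. These were an MGE-like cluster of 1410 cells, a CGE-like cluster of 844, a GE progenitor-like cluster of 239, a striatal-like cluster of 226 and a second MGE-like cluster of 109 cells, of which 93.6% were called as doublets. How far the dissection sets these shares was not tested. GE-like cells made up 15.9% of all cells and 11.8% of all UMIs, but held 66469 of the 73416 UMIs of the 10 genes (90.5%, 90.3% to 90.8%).

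The share in GE-like cells lay between 87.7% and 91.9% for 9 of the 10 genes. Gsx2 was lower, at 72.7% (68.2% to 76.9%), and most of the rest of its UMIs were in apical progenitors. Nkx2-1 was nearly absent, with 28 UMIs in both embryos, 25 of them in GE-like cells. By embryo, the share of Six3 was 89.8% in WT and 90.2% in cKO, and for Dlx1 91.9% and 86.9%.

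**Figure D4:**
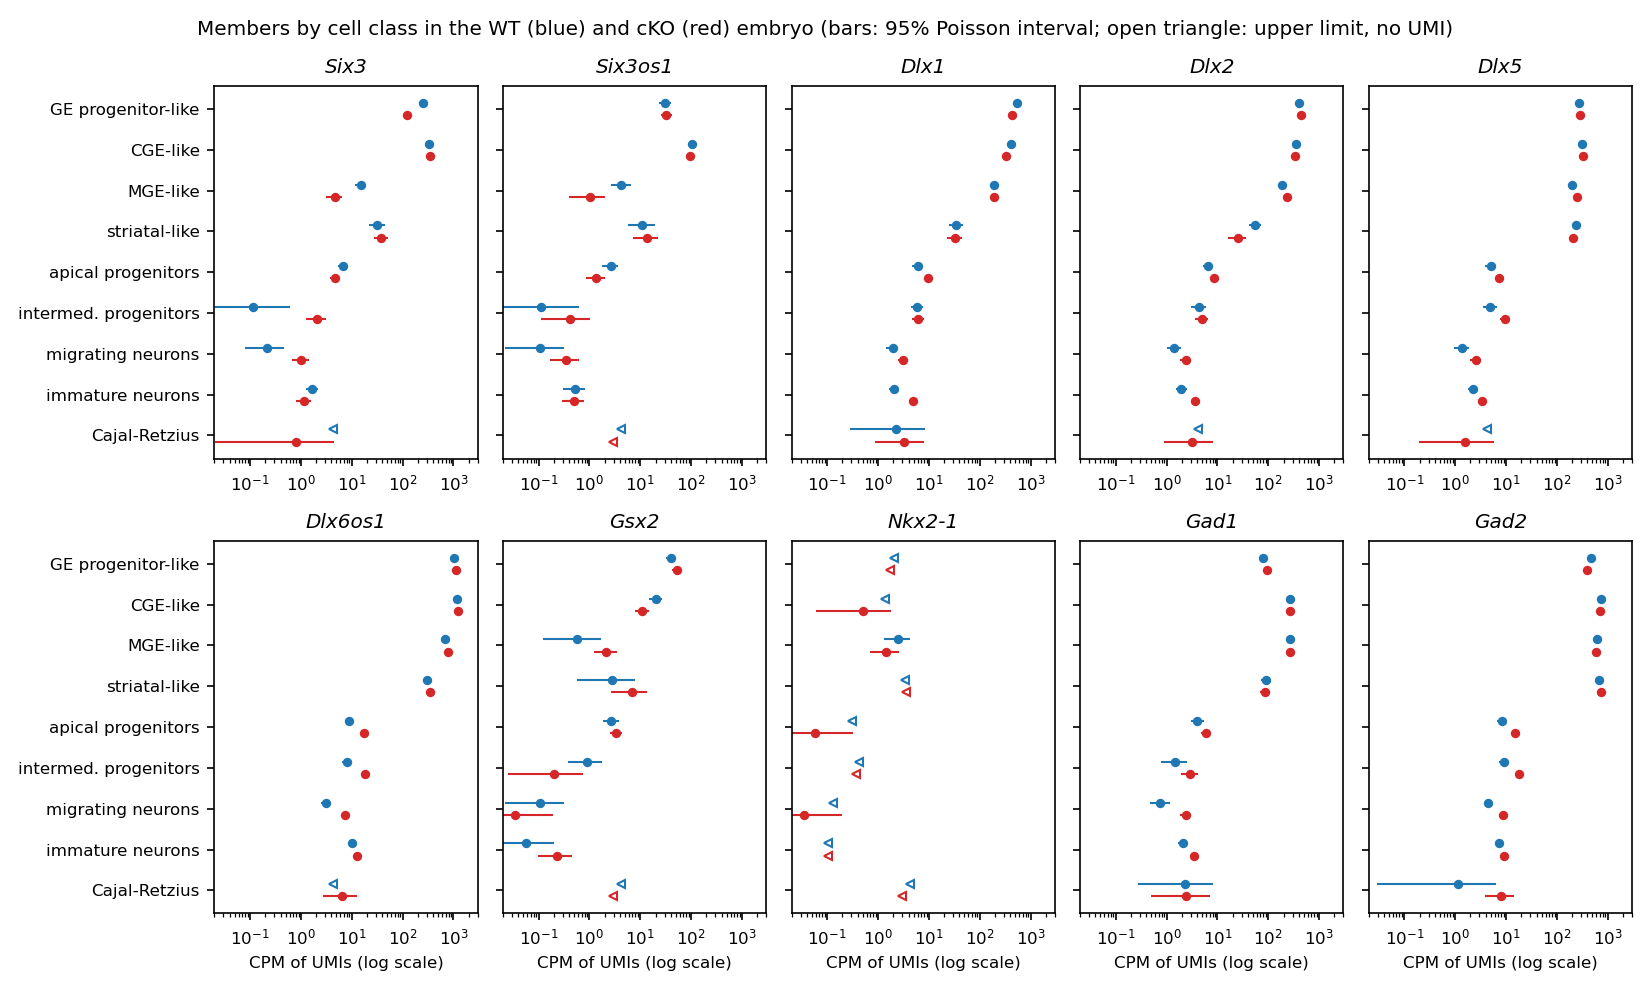
CPM of UMIs of the 10 genes by cell class in the WT (blue) and cKO (red) embryo, on a log axis, with 95% Poisson intervals; open triangles are upper limits where no UMI was seen. All genes but Nkx2-1 stand higher in the GE progenitor-like and CGE-like classes than in apical and intermediate progenitors and migrating and immature neurons. Six3, Six3os1 and Gsx2 are low in MGE-like cells.

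Within the GE-like cells each gene had its own order. Six3, summed over both embryos, was highest in CGE-like cells at 339 CPM (325 to 353), then GE progenitor-like cells at 179 CPM (166 to 192), striatal-like cells at 35.1 CPM (27.6 to 44.0) and the larger MGE-like cluster at 10.8 CPM (8.86 to 13.1). None of these intervals overlapped. The name CGE-like belongs to the whole cluster. Its cells with a Six3 UMI were lower in most CGE lineage genes, such as Adarb2 (681 against 3301 CPM), as described below. Six3os1 followed the same order, at 99.3, 31.7, 12.2 and 2.83 CPM. Outside the GE-like cells, Six3 was at 5.57 CPM in apical progenitors, 1.12 CPM in intermediate progenitors, 0.613 CPM in migrating neurons and 1.40 CPM in immature neurons.

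Six3 was carried by a minority of cells with many UMIs. Of 2828 GE-like cells, 464 (16.4%) had at least 1 Six3 UMI, with a mean of 6.72 and up to 43, and 222 cells with 5 or more held 85.6% of its UMIs. The share of cells with a Six3 UMI was 37.2% in CGE-like cells, 48.5% in GE progenitor-like cells, 9.74% in striatal-like cells and 0.780% in the larger MGE-like cluster. Among cells thinned to 5000 UMIs, those shares were 35.0%, 31.8%, 8.62% and 0.690%, so that CGE-like and GE progenitor-like cells could not be ordered. In Cajal-Retzius cells, which should lack Six3, the share was 0.571% (median 12043 UMIs, against 7295 in the MGE-like cluster), so the MGE-like share is not distinct from the background. Still, the 11 MGE-like cells with a Six3 UMI held 107 of them, up to 41 in a cell.

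Six3os1 was found mostly in cells with Six3. Of 251 GE-like cells with a Six3os1 UMI, 229 (91.2%) also had Six3, and of cells without Six3 only 0.931% had Six3os1. In the other direction, 49.35% of the 464 cells with Six3 had a Six3os1 UMI. Over 26 clusters, the profile of Six3os1 was also the one most like that of Six3 (Pearson r = 0.982 of log2(CPM + 1), among 14289 genes), ahead of Gm20515 (0.853) and Gsx2 (0.841). These clusters share libraries and cell types, so r is a description.

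The Dlx genes were broader. Dlx2 was at 429 CPM (409 to 450) in GE progenitor-like cells, 337 CPM (323 to 352) in CGE-like cells, 240.2 CPM (231 to 250.1) in the larger MGE-like cluster and 40.2 CPM (32.2 to 49.7) in striatal-like cells. Dlx1 had the same order, at 475, 366, 214 and 33.7 CPM, so the gene that could not be counted in the cultures was readily seen in tissue, as was Dlx6 with 1229 UMIs. Dlx5 was flatter, at 277, 322, 263 and 222 CPM in the same 4 clusters, so that, unlike Dlx1 and Dlx2, it was also high in striatal-like cells. Dlx6os1 was at 1071, 1208, 828 and 325 CPM, with a UMI in 2451 GE-like cells. The profiles most like Dlx2 over the clusters were Dlx1 (r = 0.979), Dlx1as (0.947) and Dlx6os1 (0.939).

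Gsx2 marked the progenitors. Its level was 46.5 CPM (40.1 to 53.7) in GE progenitor-like cells, 14.6 CPM (11.9 to 17.9) in CGE-like cells, 4.68 CPM (2.24 to 8.60) in striatal-like cells and 3.09 CPM (2.49 to 3.79) in apical progenitors, where the intervals of striatal-like cells and apical progenitors overlapped. In the larger MGE-like cluster it was at 1.62 CPM (0.924 to 2.63). Of 168 GE-like cells with a Gsx2 UMI, 89.9% had Dlx2. Nkx2-1 had 22 UMIs in the larger MGE-like cluster (2.22 CPM, 1.39 to 3.37), in 13 of its 1410 cells, and none in GE progenitor-like cells, which allows a level of up to 0.755 CPM (3 UMIs). The nearest profiles to Nkx2-1, which rest on its 28 UMIs, were Gm11728 (r = 0.908), Edaradd (0.834) and Ism1 (0.832).

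Gad1 and Gad2 differed in where they were high. Gad1 was at 304 CPM (293 to 315) in the larger MGE-like cluster and 267.5 CPM (255 to 280.4) in CGE-like cells, but at 87.3 CPM in GE progenitor-like and 87.9 CPM in striatal-like cells, which overlapped. Gad2 was at 712.5 CPM (692 to 733) in CGE-like, 699.8 CPM (665 to 736) in striatal-like and 652 CPM (637 to 669) in MGE-like cells, where CGE-like and striatal-like cells overlapped, and at 423 CPM (403 to 444) in GE progenitor-like cells. Of 2019 GE-like cells with a Gad1 UMI, 94.8% also had Gad2. The profiles nearest to Gad1 were Gm14204 (r = 0.960), Nrxn3 (0.943) and Sp9 (0.941).

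The absence of Six3 and Six3os1 seen in the cKO cultures was not seen in the cKO embryo. Summed over GE-like cells, Six3 was at 134 CPM (1433 UMIs) in the WT embryo and 119.5 CPM (1684 UMIs) in the cKO embryo, a log2 ratio of -0.16 (-0.26 to -0.06). Six3os1 was at 34.2 and 33.1 CPM (-0.05, -0.25 to 0.15). For the other genes the log2 ratio ran from -0.51 for Nkx2-1, with an interval from -1.77 to 0.74, to 0.19 for Dlx5 (0.12 to 0.27). Dlx2 was at 248 and 276 CPM (0.15, 0.08 to 0.22), in the direction opposite to the cultures. With 1 embryo of each genotype, the variation between embryos is not known. Emx1-Cre acts mainly outside the GE, and whether the GE-like cells carry the deletion was not measured.

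The clusters differed in how the embryos compared. In CGE-like cells, Six3 was at 331 CPM in the WT and 344 CPM in the cKO embryo (log2 ratio 0.06, -0.07 to 0.18), while Dlx1 (413 and 335 CPM, -0.30, -0.42 to -0.19) and Gsx2 (20.2 and 10.9 CPM, -0.88, -1.50 to -0.27) were lower in the cKO embryo. In GE progenitor-like cells, Six3 was at 247 CPM in the WT and 121 CPM in the cKO embryo (-1.03, -1.26 to -0.81), but Six3os1 at 30.6 and 32.6 CPM (0.09). The share of progenitor-like cells with a Six3 UMI was 56.9% in 109 WT cells and 41.5% in 130 cKO cells, and 34.3% and 29.6% after thinning. In the larger MGE-like cluster, Six3 was at 18.5 and 5.23 CPM (-1.83, -2.49 to -1.20) and Six3os1 at 5.05 and 1.22 CPM (-2.05, -3.53 to -0.76). Few cells carried them, with a Six3 UMI in 5 WT cells (0.835%) and 6 cKO cells (0.740%). Six3os1 was in 4 WT and 3 cKO cells. UMIs of 1 cell are not independent, so these intervals are too narrow to compare the embryos. In striatal-like cells, Dlx2 was at 54.7 and 24.96 CPM (-1.13) and Six3 at 31.9 and 38.4 CPM.

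Outside the GE-like cells the 10 genes were low in both embryos. In apical progenitors, Six3 was at 6.82 CPM in the WT and 4.72 CPM in the cKO embryo, and Six3os1 at 2.61 and 1.36 CPM. Gad2 was at 8.34 and 14.7 CPM there and Dlx6os1 at 8.84 and 17.5 CPM. The class was not split into dorsal and ventral progenitors and held 91 Gsx2 UMIs, so how many of its cells Emx1-Cre reached was not measured. Of 2073 apical progenitors, 3.09% had a Six3 UMI, with an interval of 2.39% to 3.93% that overlaps the 0.0145% to 3.14% of Cajal-Retzius cells (1 of 175 cells). After thinning, the shares were 1.98% and 0.855%. This background rests on 1 cell, so apical progenitors and Cajal-Retzius cells could not be told apart by it. Larger classes had lower shares than the 64 of 2073 apical progenitors. A Six3 UMI was in 28 of 4846 migrating neurons, 11 of 1292 intermediate progenitors and 46 of 4563 immature neurons. By UMIs, apical progenitors held 164 of Six3, up to 32 in a cell, against 1 in Cajal-Retzius cells. The 9 apical progenitors with 5 or more held 51.8% of theirs. Gad2 was at 12.2 CPM in apical progenitors, 8.29 CPM in immature neurons and 5.16 CPM in Cajal-Retzius cells. For each 100 UMIs of Gad2, apical progenitors held 45.8 of Six3, GE progenitor-like cells 42.2, CGE-like cells 47.5 and MGE-like cells 1.51. The parts of free RNA, of doublets and of expression in these low levels were not tested.

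The Six3-carrying cells of the CGE-like cluster were unlike its other cells. The cluster held 314 cells with a Six3 UMI (123 WT and 191 cKO) and 530 without (196 and 334), with medians of 7687.5 and 7537.5 UMIs. Of 11709 genes with at least 20 UMIs in the cluster, 204 (1.74%) were at least 2-fold higher and 262 (2.24%) at least 2-fold lower in the cells with Six3 in both embryos. Of the other members, Six3os1 alone passed in either direction, higher at 241 against 6.32 CPM. Dlx1 was at 227 CPM in cells with Six3 and 458 CPM without, Dlx6os1 at 747 and 1512 CPM, and Gad2 at 869 and 609 CPM.

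Of 8 CGE lineage genes, 6 were lower in the cells with Six3 and none higher, with median log2 ratios of -2.81 in WT and -2.35 in cKO. Adarb2, an RNA-editing family gene of CGE interneurons, was at 681 CPM with Six3 and 3301 CPM without, Nr2f2 at 56.4 and 406 CPM, and Htr3a at 1.15 and 31.8 CPM. Of 10 LGE and striatal genes, 6 were higher and 1 (Ebf1) lower, with median log2 ratios of 1.67 and 1.74. Foxp1, a factor of striatal neurons, was at 921 and 253 CPM, Zfp503 at 149 and 15.2 CPM, and Penk, which encodes enkephalin, at 17.7 and 0.505 CPM. Of 7 MGE lineage genes, 4 were lower. None of 4 GABA handling genes reached 2-fold in both embryos. The cluster was thus mixed under its CGE-like name, and Six3 was not among the genes used to cluster.

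**Figure D5:**
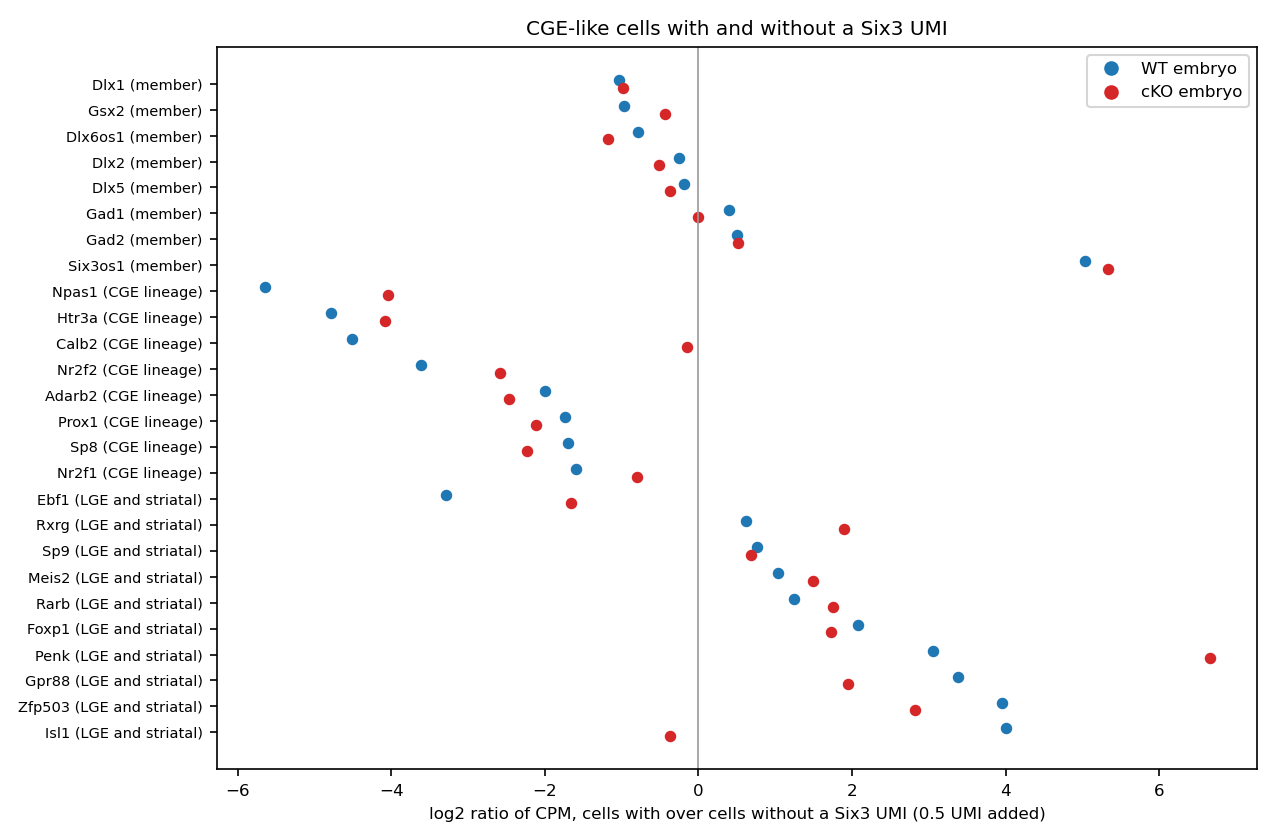
Log2 ratio of CPM in CGE-like cells with over those without a Six3 UMI, in the WT (blue) and cKO (red) embryo, for the members and the CGE lineage and LGE and striatal genes that were tested; 0.5 UMI was added to each sum. CGE lineage genes lie to the left in both embryos and most LGE and striatal genes to the right, except Ebf1 in both and Isl1 in the cKO embryo.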

How the data were processed

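Bulk RNA-seq counts per gene were deposited by the authors for 3 WT and 3 cKO cultures, aligned with HISAT2 to mm10. Neither the counter nor the annotation is given in the sources used here. For tissue, the authors deposited UMI counts per cell and gene from Cell Ranger for 1 embryo per genotype, dissociated from dorsal cortex. The 10 genes and all gene lists were chosen with earlier results of these data known.

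The counts were tested with edgeR 4.0.16 (filterByExpr, TMM, glmQLFit and glmQLFTest, genotype alone) over 14432 genes, with Benjamini-Hochberg adjustment and a threshold of 0.05. CPM use TMM-scaled library sizes. On simulated data for this comparison, 183 of 200 changed genes among 14287 were recovered and 5.67% of calls were false. DESeq2 1.42.0 and limma 3.58.1 were alternatives. No replicates were identical. GENCODE M21 gave spans, strands and identifiers, matched to mm10 by position.

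Barcodes under 200 genes or above 10% mitochondrial UMIs were removed, which left 17774 of 17948. Doublet calls (731, 4.07%) stayed in, and clusters were made with Seurat 5.3.0 at a resolution of 0.8 without the 10 genes. A cluster was named where at least 3 markers were raised 1.5-fold. Intervals are exact Poisson or binomial.

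The genes named were all 10 members, up to 4 called genes per list with the largest fold change, list genes without a count in 1 genotype, the nearest tested neighbours and the 3 nearest profiles. Some genes of the lists are not reported here by name. Alternatives were other scalings, filters, tests, covariates, left-out cultures, clustering resolutions and doublet or cell filters. No protein sequence was used.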

Additional observations from a re-analysis of the deposited data

How the results depend on the processing

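The calls on Six3, Six3os1 and Dlx2 kept their direction and their side of the threshold in all 14 alternatives run on the cultures (other scalings, filters, tests and designs, and each culture left out), with adjusted p-values of at most 2.66e-05, 5.01e-04 and 0.00341. Gsx2 was called in 1 of 13 alternatives (adjusted p from 0.0421 to 0.195) and Dlx6os1 in none of 13 (0.0544 to 0.332). With the sex of the culture as a covariate, 1 member, Gad1, was called higher against 0 in the reported fit. The log2 fold change of Gad2 reversed from 0.02 to -0.21 with that covariate, -0.06 without WT culture 1, -0.23 without WT culture 2 and -0.30 without cKO culture 2 (range over single cultures left out, -0.30 to 0.40), and the cause was not tested. Leaving out 1 culture at a time gave 2068 to 3070 genes higher and 2040 to 3275 lower, 3 to 4 members lower and 0 to 0 higher, and 4 to 5 list genes higher and 9 to 13 lower.

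The deviations of same-numbered WT and cKO cultures had correlations of 0.326, -0.0168 and 0.0720. These values cannot decide whether the numbers pair the cultures, and the labels do not say, so the reported fit is unpaired. With a replicate block, 3189 genes were higher and 3216 lower, 3 members lower and 0 higher, and 5 list genes higher and 14 lower.

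In tissue, the share of the members' UMIs in GE-like cells was 90.5%. It was 74.2% at a resolution of 0.4, where the GE progenitor-like cells joined the apical progenitors, and there the log2 ratio of Six3 in GE-like cells reversed from -0.16 to 0.11. The share was 93.1% with doublet calls removed and 90.3% without the doublet-rich clusters, an alternative chosen after seeing the data. Depth limits Dlx5 in the cultures and Nkx2-1 in the tissue, which rest on 34 counts and 28 UMIs.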
